A study of Rattus norvegicus with 18 samples.

Results

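The well-oxygenated tissue of rat 9L tumours was compared with 9L cells grown in air, to describe across genes what the tissue holds beside 9L cells and which genes of the cultured cells stood lower in it. 9L is a rat gliosarcoma line that is widely used as a glioma model. The comparison used 9 of the 18 samples of the series, chosen by their titles: the 3 samples of normoxic tumour regions and the 6 samples of normoxic cultures. The 9 hypoxic samples entered the shared estimate of the spread, the normalizations, the choice of probe set per gene and 1 check of oxygen state.

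The tumours were grown in male Fischer 344 rats of 6 weeks. Injected 9L cells gave a first tumour under the skin of the flank, pieces of tumour were passed from animal to animal, and pieces of passage 5 or 6 were tied to the epigastric artery and vein. EF5 leaves bound adducts where oxygen is low, and each tumour's normoxic region is an area free of such adducts that was cut from a section by laser capture. Fischer rats are the strain of origin of 9L and keep their immune system, so host blood vessels, stroma and immune cells can all be present in such an area. The cultures were 9L cells in medium with 12% newborn calf serum at about 20% oxygen, 3 taken at 6 h and 3 at 16 h, detached with trypsin before lysis. The cultures hold the line alone. All samples had the same amplification from 2 ng of total RNA and were hybridized to Affymetrix Rat Gene 1.0 ST arrays. Tissue against culture, laser capture against trypsin and lysis, and any difference in RNA quality between both sources cannot be told apart in this design. Nothing in the labels tells whether the cultures were grown independently, and p-values thus reflect only sample-to-sample spread, which may be technical.

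As background, a solid tumour mixes tumour cells with macrophages, lymphocytes, endothelium and fibroblasts of the host, and each type brings transcripts that the tumour cells do not make. Interferon gamma, made by T and NK cells, acts on macrophages and tumour cells alike. It induces the chemokine Cxcl9, the class II transactivator Ciita and the genes that load peptides on MHC molecules. Cells in rich medium divide fast, and their machinery for replication, ribosome building, protein folding and protein breakdown is set for growth. NRF2 is the transcription factor that induces genes for glutathione and for the detoxification of quinones and peroxides.

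The tumour arrays differed from the culture arrays in the shape of their distributions. Medians over probe sets were 6.43, 6.44 and 6.36 in tumours 1, 2 and 3, against 6.02 to 6.19 in the normoxic cultures (log2 signal), and SDs over probe sets were 1.79, 1.79 and 1.92 against 2.04 to 2.16. Values in the tumours were thus higher at the dim end and lower at the bright end. Of all 27363 probe sets, 11938 were higher in tumour (43.6%) and 5663 lower (20.7%) at an adjusted p of 0.05, which leaves little room for a plain count to single out genes. After quantile normalization, which gives all arrays 1 distribution, 6032 were higher (22%) and 4457 lower (16.3%). After cyclic loess the split was 5001 higher (18.3%) and 5081 lower (18.6%), and after median centring 4371 higher (16.0%) and 8487 lower (31.0%). With a minimum of 2-fold in the deposited values, 1080 were higher (3.95%) and 3123 lower (11.4%). The median gene lay 0.21 log2 units higher in tumour in the deposited values, 0.044 higher after quantile normalization, at -0.0090 after cyclic loess and at -0.10 after median centring.

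For this reason genes were also counted by a stricter rule, set after the data had been seen: an adjusted p of 0.05 and a difference of at least 2-fold in the same direction in the deposited and in the quantile normalized values. Below, "2-fold under both scalings" means this rule. Of the 14324 genes measured, 382 were higher by it (2.67%) and 1493 lower (10.4%), whereas the plain test in the deposited values called 42.7% of genes higher and 27.3% lower, and after quantile normalization 21.7% and 19.9%. The level in culture mattered for these shares. Of the 5626 genes that lay below the array median in all 6 normoxic cultures, here called dim in culture, 70.2% were higher by the plain test and 3.27% were higher 2-fold under both scalings. Of the 3917 genes in the top 25% of all 6 cultures, here called bright in culture, 73.4% were lower by the plain test and 29.2% were lower 2-fold under both scalings, but only 0.689% were higher. A list of bright genes is therefore read against 29.2%, and a list of dim genes against 3.27%.

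**Figure D1:**
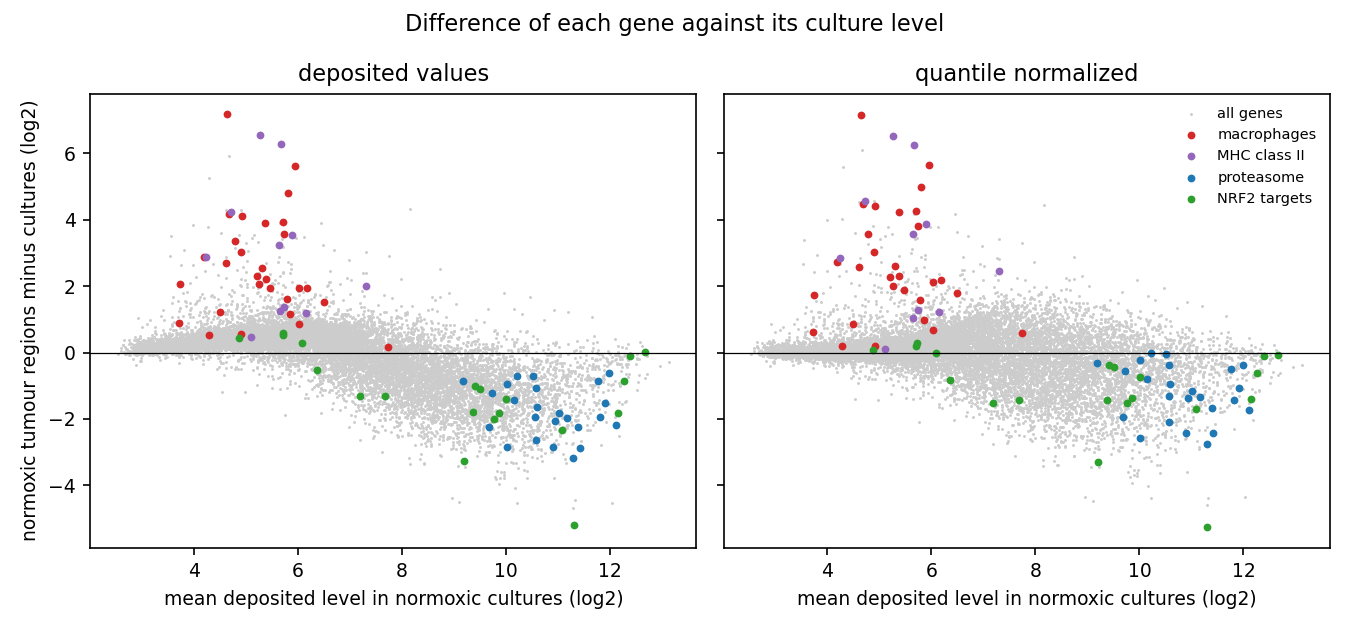
Each point is 1 gene: its mean level in the 6 normoxic cultures on the horizontal axis and the difference of the 3 normoxic regions from the cultures on the vertical axis (both log2), with the deposited values on the left and the quantile normalized values on the right. Coloured points mark the macrophage, MHC class II, proteasome and NRF2 target lists; most macrophage and class II genes stand above the cloud in both panels, up to 7.18 for Lyz2, and the NRF2 target Nqo1 lies lowest at -5.19, while the proteasome genes follow the lower part of the cloud of bright genes.

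One tumour stood apart. The normoxic region of tumour 3 correlated with the mean of the normoxic cultures at 0.941 over probe sets, those of tumours 1 and 2 at 0.892 and 0.889. Of the 2123 probe sets that were lower 2-fold under both scalings (7.76% of all), tumour 3 lay nearest to the cultures in 71.2%, at a median of -1.34 against -2.02 in tumour 1 and -2.05 in tumour 2. Among the 843 probe sets that were higher by this rule (3.08%), it was nearest in 52.9%, with medians of 1.48, 1.48 and 1.27 in tumours 1, 2 and 3. Without tumour 3 the 2-fold rule called 1179 probe sets higher, and 11938 higher by the plain test became 12974. Most genes named below are given with their value in each tumour for this reason.

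The markers that were to define the tissue were present at high level in all 3 regions and near the lower end of the scale in all cultures. Lyz2, the lysozyme of macrophages and neutrophils, was at 11.78, 11.81 and 11.86 in tumours 1, 2 and 3, and at 4.39, 4.62 and 4.96 in the lowest, median and highest of the 6 cultures. This is a 145-fold difference, 7.18 ± 0.19 on the log2 scale (SE, adjusted p = 8.14e-13), and the groups lay far apart. Cd74, the invariant chain that guides MHC class II molecules through the cell, was at 12.05, 11.81 and 12.01 in the tumours and from 5.50 to 5.90 in the cultures, with a median of 5.66. It was 78.2-fold higher (6.29 ± 0.15, adjusted p = 5.27e-13). Cxcl9, the interferon-induced chemokine that draws activated T cells, was at 10.58, 10.25 and 10.91 against 4.27, 4.67 and 5.13, which is 60.2-fold (5.91 ± 0.27, adjusted p = 5.39e-10). After quantile normalization the 3 log2 differences were 7.16, 6.24 and 6.11. No detection call was used here, so folds of genes that are dim in culture are ratios of signals that may include background. In these bulk samples more cells of a type and more RNA per cell cannot be told apart.

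Of the host cell lists, that of macrophages had the most genes at least 2-fold higher. Of 29 measured members, 28 were higher and none lower, 22 of them 2-fold under both scalings, with a median difference of 2.22 in the deposited and 2.28 in the quantile normalized values. All 28 lay above all 6 cultures in all 3 tumours, where 33.5% of all genes did. Of the 22 members that were dim in culture, 17 were higher 2-fold under both scalings, against 3.27% of all dim genes. The complement subunit C1qc was at 11.64, 11.57 and 11.50 in the tumours against 5.83 to 6.11 in culture (49.5-fold, 5.63 ± 0.15, adjusted p = 8.14e-13). Its partner C1qa was at 9.43, 9.69 and 9.80 against 5.51 to 5.90 (15.3-fold, 3.93 ± 0.26). Tyrobp, the signalling adaptor of many myeloid receptors, was nearly the same in the 3 regions, at 10.63, 10.58 and 10.63, against 5.55 to 6.00 in culture (28-fold, 4.81 ± 0.27). These 3 genes differed less among tumours than from the cultures by a wide margin.

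Some other leukocyte genes varied more among the tumours. Ptprc, the leukocyte common antigen CD45, was at 8.41, 8.72 and 9.38 in the tumours against 4.45 to 4.89 in culture (17.9-fold, 4.16 ± 0.32). Cybb, the core of the phagocyte NADPH oxidase, was at 8.93, 8.41 and 9.77 against 4.71 to 5.13 (17.3-fold, 4.12 ± 0.22). Arhgdib, a gene of blood cells, was at 8.07, 8.28 and 10.33 against 4.39 to 4.91 (19.5-fold, 4.29 ± 0.38). All 3 were highest in tumour 3. Ctss, the cathepsin that trims the invariant chain, was at 8.92, 9.35 and 9.53 against 5.15 to 5.53 (14.9-fold, 3.90 ± 0.28). The receptor Csf1r, which macrophages need to survive, was at 7.30, 7.24 and 7.61 against 5.28 to 6.33 (3.04-fold, 1.60 ± 0.25, adjusted p = 8.16e-05). The scavenger receptor Cd163, by contrast, was at 5.48, 5.35 and 5.58 against 4.70 to 4.99. It passed the plain test at 0.56 ± 0.10, but the quantile normalized difference was 0.19, less than in the deposited values. Cd14 was the 1 macrophage gene that did not pass: it was at 7.98, 7.78 and 8.02 in the tumours and at 7.22 to 8.30 in the cultures, which already held it.

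T and NK cell genes were also higher, with wide differences among the tumours. Of 26 measured members, 24 were higher and none lower, 13 of them 2-fold under both scalings, with a median of 1.01 under both. Among the 20 dim members, 19 were higher and 9 by the 2-fold rule, where 70.2% and 3.27% of all dim genes were. Cd3d, a chain of the T cell receptor complex, was at 7.83, 6.32 and 10.27 in tumours 1, 2 and 3 against 4.37 to 4.69 in culture (12.2-fold, 3.61 ± 0.54, adjusted p = 5.10e-05). Cd3e was at 6.55, 7.63 and 9.20 against 4.86 to 5.22 (6.81-fold, 2.77 ± 0.35), and Cd3g at 6.27, 4.92 and 7.99 against 3.52 to 4.05 (6.23-fold, 2.64 ± 0.42). All 3 chains were highest in tumour 3, and each tumour value lay above every culture. The SEs come from 1 spread shared by all arrays, so for such genes they understate the spread among tumours. Klrk1, the NKG2D receptor of NK and CD8 T cells, was at 6.90, 5.66 and 8.11 against 3.63 to 3.91 (8.46-fold, 3.08 ± 0.32). Cd4, which macrophages of the rat carry as well as helper T cells, was more even at 7.42, 7.33 and 8.21 against 4.96 to 5.48 (5.26-fold, 2.40 ± 0.17). The co-receptor Cd8a of killer T cells was at 6.93, 7.15 and 7.90 against 5.48 to 5.78 (3.12-fold, 1.64 ± 0.16). Without tumour 3, 24 members were still higher and 11 passed the 2-fold rule. The 2 members that did not pass were Cd28, at 6.20, 5.99 and 6.33 against 6.40 to 8.02 and lower by -1.32 after quantile normalization, where it passed, and Gzma, at 5.06, 4.87 and 6.12 against 4.81 to 5.18.

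Of 12 measured immune checkpoint genes 10 were higher, with 6 of the 7 dim ones, where 70.2% of all dim genes were. Only 1 was higher by the 2-fold rule (2 without tumour 2 or tumour 3). That was Lag3, an inhibitory receptor of T cells that binds MHC class II, at 8.31, 8.39 and 10.02 against 5.33 to 6.07 in culture (9.10-fold, 3.19 ± 0.28, adjusted p = 4.08e-07). Pdcd1, the receptor PD-1, was at 7.45, 7.24 and 7.22 against 6.29 to 6.76 (1.66-fold, 0.73 ± 0.11, and 0.76 after quantile normalization). Ido1, the tryptophan-degrading enzyme that interferon gamma induces in many cells, did not pass, at 4.59, 4.71 and 4.54 in tumour and 4.33 to 4.74 in culture. All 9 dendritic cell genes were higher, where 42.7% of all genes were, and 3 passed the 2-fold rule, where 2.67% did. The transcription factor Irf8, which macrophages share, was at 7.51, 8.09 and 8.29 against 5.56 to 5.87 (4.92-fold, 2.30 ± 0.15). The lectin Clec10a was at 7.63, 7.10 and 8.38 against 5.47 to 6.03 (3.88-fold, 1.96 ± 0.21).

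Lists of other blood cells gave few large differences. None of the 15 neutrophil genes, all dim in culture, was higher by the 2-fold rule, although 11 passed the plain test, a rate like the 70.2% of all dim genes. Their median was 0.50 in the deposited and 0.13 in the quantile normalized values. The alarmins S100a8 and S100a9, abundant in neutrophils, did not pass. S100a8 was at 3.51, 3.50 and 3.53 in tumour and at 3.10 to 3.57 in culture, and S100a9 at 5.02, 5.40 and 4.94 against 4.49 to 4.96. The pattern was alike for the B and plasma cell list, with 7 of 9 higher, 0 by the 2-fold rule and a quantile median of 0.14, and for the 4 platelet genes, with 4 higher and 0 by that rule. Of the mast cell genes 9 of 10 were higher and 0 by the 2-fold rule; the mast cell protease Tpsab1 was the highest called, at 1.04 ± 0.11 in the deposited and 0.67 in the quantile normalized values. Of 7 red cell genes 5 were higher and 1 lower, and Hbb, the beta chain of haemoglobin, passed the 2-fold rule at 6.84, 7.34 and 7.03 against 5.73 to 6.09 (2.23-fold, 1.16 ± 0.15), though not without tumour 2.

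**Figure D2:**
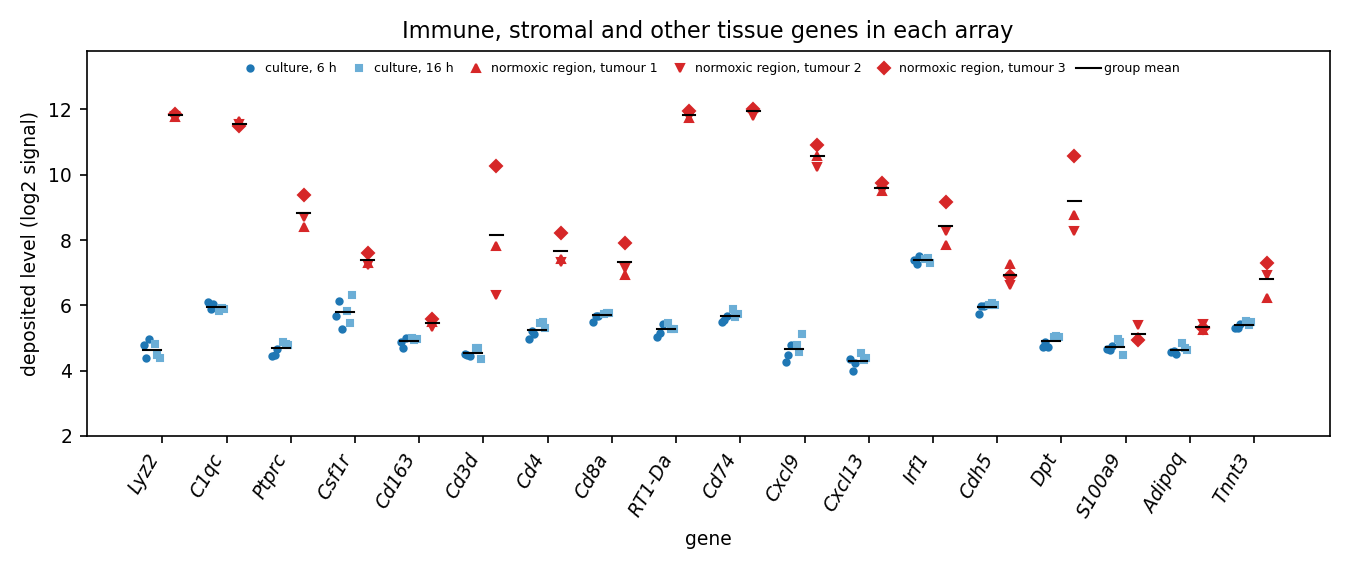
Deposited log2 signal (vertical axis) of 18 immune, stromal and other tissue genes in every array: circles and squares are the 6 normoxic cultures at 6 h and 16 h, triangles and diamonds the normoxic regions of the 3 tumours, and short lines the group means. Lyz2, C1qc, RT1-Da and Cd74 lie between 11.50 and 12.05 in all 3 tumours, Cd3d spreads from 6.32 to 10.27 over them, and S100a9 stays near the cultures.

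Vessel and stroma genes were higher by small steps, with a few exceptions. Of 22 blood endothelium genes 20 passed as higher and 1 as lower, but only Icam2, an adhesion molecule of endothelium and platelets, passed the 2-fold rule (6.28, 5.91 and 6.60 against 4.67 to 5.07, 2.70-fold, 1.43 ± 0.12); without tumour 2, 3 of the list passed it. The list's median was 0.66 in the deposited and 0.34 in the quantile normalized values, where the median dim gene was at 0.42 and 0.095. Cdh5, the cadherin of endothelial junctions, was at 7.26, 6.61 and 6.89 against 5.74 to 6.07 (1.94-fold, 0.95 ± 0.16), and Flt1, a receptor for vascular endothelial growth factor, at 6.65, 6.31 and 7.15 against 5.50 to 5.74 (2.10-fold, 1.07 ± 0.18). After quantile normalization the 2 differences were 0.78 and 0.80. Esm1 was the 1 endothelial gene that was lower, and the cultures themselves held it, at 7.74 to 8.31; its difference was -0.52 in the deposited values and did not pass at -0.19 after quantile normalization. Of 14 genes of pericytes and smooth muscle, 11 were higher, 1 lower (0 without tumour 1 or 2) and 0 passed the 2-fold rule. Of 6 lymphatic genes 5 were higher and 0 passed it (1 without tumour 3). The medians of these 2 lists were 0.43 and 0.50 in the deposited values and 0.24 and 0.12 after quantile normalization, where the median dim gene lay at 0.42 and 0.095.

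Of 19 fibroblast genes 16 were higher, 1 lower and 4 higher by the 2-fold rule. All 14 dim members were higher by the plain test and 2 by the 2-fold rule, where 70.2% and 3.27% of all dim genes were. Dpt, a collagen-binding protein of the dermis, stood out at 8.77, 8.27 and 10.57 in tumours 1, 2 and 3 against 4.72 to 5.05 in culture (19.7-fold, 4.30 ± 0.49, adjusted p = 4.59e-06). Cxcl12, the stromal chemokine that holds Cxcr4-bearing cells, was at 9.90, 9.93 and 9.40 against 6.21 to 6.72 (9.51-fold, 3.25 ± 0.16). The surface protein Thy1, which T cells of some species and neural cells share, was at 6.42, 7.18 and 7.76 against 5.28 to 5.90 (2.82-fold, 1.49 ± 0.23). Pdgfra was bright in culture already, at 8.62 to 9.18, and was higher in the tumours at 9.85, 10.12 and 9.79 (2.11-fold, 1.08 ± 0.18). The dermal proteoglycan Dcn was at 5.85, 5.16 and 6.28 against 4.65 to 5.14 (1.91-fold, 0.93 ± 0.19, and 0.56 after quantile normalization). Ogn, made by the cultures at 8.60 to 9.60, was lower in all 3 tumours at 7.03, 8.55 and 7.99 (2.38-fold lower, -1.25 ± 0.29, and -0.80 after quantile normalization).

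Of 14 skeletal muscle genes 11 were higher by the plain test, with 7 of the 9 dim ones, a rate like the 70.2% of all dim genes. By the 2-fold rule 2 were higher (1 without tumour 3). Both encode troponins of fast fibres: Tnnc2 was at 8.0, 7.36 and 8.84 against 6.11 to 6.77 (3.33-fold, 1.73 ± 0.27), and Tnnt3 at 6.22, 6.92 and 7.29 against 5.31 to 5.53 (2.63-fold, 1.39 ± 0.18). The other muscle genes were higher by at most 0.83, the value of Ckm, the muscle creatine kinase. Of 11 adipocyte genes 10 were higher and 0 by the 2-fold rule, with Adipoq, the fat cell hormone adiponectin, first at 0.69 ± 0.13 and at 0.33 after quantile normalization. The list's median was 0.44 in the deposited and 0.16 in the quantile normalized values, where the median dim gene was at 0.42 and 0.095. The 5 epidermis and 7 Schwann cell genes gave 3 and 5 higher and 0 by the 2-fold rule, with 1 of 3 and 2 of 3 dim members higher.

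Glial genes gave mostly small differences. Of 23 glial and neural stem genes 16 were higher, 2 lower (1, 1 and 4 without tumours 1, 2 and 3) and 1 higher by the 2-fold rule. Of the 14 dim members 12 were higher, where 70.2% of all dim genes were. Gfap, the filament of astrocytes, was near the lower end of the scale in both sources, at 5.57, 5.77 and 5.23 in tumour and at 4.83 to 5.19 in culture, and after quantile normalization it did not pass at 0.15. Vim, the filament of mesenchymal cells, was among the brightest genes in both, at 11.89, 12.03 and 12.22 against 12.09 to 12.35, and did not pass the test (-0.19 ± 0.10, adjusted p = 0.0932). The stem cell filament Nes was the member that passed the 2-fold rule, at 7.47, 7.22 and 7.74 against 5.91 to 6.36 (2.38-fold, 1.25 ± 0.16).

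MHC class II formed the list with the largest median of all 52. All 11 measured members were higher and 10 passed the 2-fold rule, with a median of 2.89 in the deposited and 2.85 in the quantile normalized values. Among the 9 dim members, 9 were higher and 8 by the 2-fold rule, where 70.2% and 3.27% of all dim genes were. RT1-Da, the alpha chain of the rat's DR-like molecule, was at 11.74, 11.78 and 11.96 in the tumours and at 5.03 to 5.45 in the cultures (94.4-fold, 6.56 ± 0.34, adjusted p = 2.05e-09). RT1-Ba, the DQ-like alpha chain, was at 8.65, 8.81 and 9.41 against 4.27 to 4.98 (18.9-fold, 4.24 ± 0.23), and its partner RT1-Bb at 9.37, 9.57 and 9.35 against 5.66 to 6.17 (11.7-fold, 3.54 ± 0.18). RT1-DMb, a chain of the peptide exchange factor, was at 8.72, 9.15 and 8.78 against 5.37 to 5.77 (9.44-fold, 3.24 ± 0.14). Ciita, the transactivator without which these genes stay silent, was itself higher at 6.82, 6.83 and 7.04 against 5.50 to 5.89 (2.38-fold, 1.25 ± 0.11). By tumour, the median difference of the list was 3.07, 2.01 and 3.13 in tumours 1, 2 and 3, lowest in tumour 2, while its mean level was 8.69, 8.47 and 8.58 against 5.43 to 5.74 in the cultures. Rat MHC genes are near copies of each other, so a probe set can read more than 1 of them.

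The promoters of these and of the interferon genes are shown because their members moved together and share short motifs. Sequences are from RefSeq on the rat build GRCr8, 250 bases up to the start of the gene, 5′ to 3′ on the gene's strand. Capitals mark the motif, searched on both strands: the CCAAT box (ATTGG) in RT1-Da and RT1-Ba, and the interferon-stimulated response element (GAAA, any 2 bases, GAAA) in the peptide transporter Tap1.
RT1-Da: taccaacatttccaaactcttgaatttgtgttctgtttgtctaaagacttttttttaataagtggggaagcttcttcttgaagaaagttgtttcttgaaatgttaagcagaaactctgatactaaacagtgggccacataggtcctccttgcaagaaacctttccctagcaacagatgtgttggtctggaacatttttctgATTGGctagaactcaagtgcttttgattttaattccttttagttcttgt
RT1-Ba: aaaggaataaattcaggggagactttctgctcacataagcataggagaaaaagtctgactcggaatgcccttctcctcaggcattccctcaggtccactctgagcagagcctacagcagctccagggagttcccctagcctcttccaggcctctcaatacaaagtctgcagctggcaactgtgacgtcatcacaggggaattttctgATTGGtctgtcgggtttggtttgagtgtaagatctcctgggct
Tap1: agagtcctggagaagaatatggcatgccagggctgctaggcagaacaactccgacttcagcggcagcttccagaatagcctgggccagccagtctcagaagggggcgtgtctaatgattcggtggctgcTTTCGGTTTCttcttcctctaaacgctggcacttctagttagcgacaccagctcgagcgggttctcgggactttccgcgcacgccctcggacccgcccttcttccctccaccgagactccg
They lie at chr20:4515165-4515414 and chr20:4576807-4577056 (plus strand) and chr20:4668544-4668793 (minus strand). The marked letters begin 49, 43 and 121 bases before the start. In windows of 300 bases, 250 before and 50 after the start, the CCAAT letters were found in all 9 class II promoters that had an entry and in 37.7% of the promoters of all 27457 genes. The interferon-stimulated response element was found in 13 of 19 type I interferon genes, in 9 of 16 class I genes, in 6 of 14 interferon gamma genes and in 0 of 9 class II genes, against 3.77% of all promoters. A match says only that these letters are in the window.

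The interferon gamma list had 14 of 17 members higher, none lower and 8 higher by the 2-fold rule, with a median of 1.05 in the deposited and 0.91 in the quantile normalized values. Among its 9 dim members, 8 were higher and 6 by the 2-fold rule, where 70.2% and 3.27% of all dim genes were. After Cxcl9, the largest differences were in the guanylate-binding protein Gbp5, at 7.96, 7.30 and 9.64 against 4.61 to 5.91 (9.77-fold, 3.29 ± 0.38), and in Ubd, a ubiquitin-like modifier, at 8.67, 7.67 and 9.16 against 5.39 to 5.82 (7.35-fold, 2.88 ± 0.23). Gbp2 was at 9.08, 8.51 and 9.95 against 6.59 to 7.75 (4.74-fold, 2.25 ± 0.30). In all 3 genes tumour 3 was highest and tumour 2 lowest. Irf1, a transcription factor of the interferon response, was at 7.85, 8.28 and 9.16 against 7.27 to 7.50 (2.07-fold, 1.05 ± 0.21, adjusted p = 0.000540). Cxcl10, which binds the same receptor as Cxcl9, did not pass. It was at 9.01, 8.81 and 9.73 in the tumours and at 9.24 to 9.81 in the cultures. Ifng itself was at 4.95, 4.62 and 5.28 against 4.17 to 4.42 (0.65 ± 0.15, and 0.33 after quantile normalization).

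Type I interferon genes gave a like picture. Of 28 measured members 21 were higher, none lower and 14 higher by the 2-fold rule, with medians of 1.13 and 1.28. Among the 12 dim members, 11 were higher and 7 by the 2-fold rule, where 70.2% and 3.27% of all dim genes were. The antiviral GTPase Mx1 was at 6.43, 6.5 and 8.16 against 4.15 to 4.55 (6.35-fold, 2.67 ± 0.27), and Oasl2, of the oligoadenylate synthetase family, at 7.72, 7.41 and 8.91 against 5.39 to 6.5 (4.10-fold, 2.04 ± 0.28). Irf9, the DNA-binding part of the type I signalling complex, was at 7.73, 8.29 and 8.23 against 5.94 to 6.49 (3.40-fold, 1.76 ± 0.21). The list leaned on tumour 3 for size: its members had a mean level of 6.94, 6.76 and 7.71 in tumours 1, 2 and 3 and of 5.92 to 6.09 in the cultures. Without tumour 3, 21 were higher, 1 lower and 8 higher by the 2-fold rule. Several classical members did not pass. Isg15 was at 7.90, 7.43 and 9.87 against 7.46 to 8.10, and Ifit3 at 6.16, 5.32 and 8.10 against 6.86 to 7.38, so that only tumour 3 exceeded the cultures in Ifit3.

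MHC class I and antigen processing genes were expressed by the cultures too, and most stood higher in tissue. Of 17 members 11 were higher, 1 lower and 9 higher by the 2-fold rule, where 2.67% of all genes were. B2m, the light chain of every class I molecule, was at 12.79, 12.69 and 12.68 against 11.43 to 11.83 (2.08-fold, 1.06 ± 0.10, adjusted p = 1.24e-06). Tap1, which pumps peptides to class I molecules, was at 8.59, 9.06 and 9.62 against 7.04 to 7.59 (3.62-fold, 1.86 ± 0.18), and Tapbp at 7.97, 8.48 and 7.67 against 6.43 to 7.47 (2.40-fold, 1.26 ± 0.20). The heavy chain gene RT1-S3 was at 7.68, 7.07 and 9.62 against 5.54 to 6.00 (5.29-fold, 2.40 ± 0.37). The interferon-induced proteasome subunits did not follow in the deposited values. Psmb8 was at 7.83, 8.0 and 8.65 against 7.95 to 8.56 and Psmb9 at 9.51, 9.85 and 10.22 against 9.40 to 9.81, and neither passed. After quantile normalization both passed as higher, at 0.48 and 0.93. Without tumour 3, 6 members passed the 2-fold rule as higher and 1 as lower.

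Chemokines went in both directions. Of 27 measured, 21 were higher and 2 lower, with 7 higher and 1 lower by the 2-fold rule (2 lower without tumour 3). Among the 15 dim chemokines, 14 were higher and 4 by the 2-fold rule, where 70.2% and 3.27% of all dim genes were. Cxcl13, which draws B cells and follicular T cells, was at 9.49, 9.50 and 9.74 in tumour against 3.99 to 4.54 in culture (38.7-fold, 5.27 ± 0.24, adjusted p = 5.39e-10). Cxcl16 was at 9.47, 9.98 and 9.85 against 6.66 to 7.27 (6.91-fold, 2.79 ± 0.19). Some chemokines of the cultures were lower in the tumours. Cxcl1, which draws neutrophils, was at 8.86, 8.09 and 8.82 in the tumours against 10.57 to 11.06 in the cultures (4.62-fold lower, -2.21 ± 0.45, adjusted p = 0.000664). Ccl2, which draws monocytes, was at 8.49, 9.02 and 10.03 against 10.25 to 11.16 (2.78-fold lower, -1.48 ± 0.32, and -0.78 after quantile normalization). Csf1, the growth factor of macrophages, stood lower as well, at 8.41, 7.19 and 8.0 against 9.11 to 9.66 (2.79-fold lower, -1.48 ± 0.26). Among complement genes, 12 of 14 were higher and 1 lower. The 7 dim ones gave 6 higher and 2 by the 2-fold rule, against the same shares of all dim genes. C3, the central component, was at 8.21, 8.35 and 9.12 against 5.02 to 5.53 (9.99-fold, 3.32 ± 0.19), and Cd55, which protects cells from complement, was lower at 6.15, 6.85 and 6.61 against 7.78 to 8.24 (2.93-fold lower, -1.55 ± 0.16). Of 23 inflammatory cytokines and NF-kB targets, 12 were higher, 2 lower and 2 higher by the 2-fold rule (1 without tumour 3), led by Il1rn, the antagonist of the interleukin 1 receptor (7.66, 5.90 and 6.49 against 3.98 to 4.66, 5.50-fold, 2.46 ± 0.32). Over all genes 42.7% were higher, 27.3% lower and 2.67% higher by that rule.

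Matrix genes moved unevenly. Of 14 collagens 11 were higher, 1 lower and 3 higher by the 2-fold rule. Over all genes 42.7% were higher, 27.3% lower and 2.67% higher by that rule. Col3a1, of the fibrillar collagen of soft tissue, was at 7.69, 7.74 and 8.23 against 6.01 to 6.46 (3.08-fold, 1.62 ± 0.19), and Col1a1, bright in culture at 8.12 to 8.66, was at 9.51, 9.16 and 9.33 (2.07-fold, 1.05 ± 0.14). Of 21 matrix glycoproteins and proteoglycans 11 were higher and none lower; Mgp, which keeps soft tissue from calcifying, was at 6.44, 6.39 and 8.64 against 4.87 to 5.13 (4.52-fold, 2.18 ± 0.34), with tumour 3 far above the others. Proteases, their inhibitors and cross-linkers went both ways, with 10 of 25 higher and 7 lower, rates like the 42.7% and 27.3% of all genes. The collagenase Mmp13 varied widely in culture, from 8.03 to 10.37, and was lower in all 3 tumours at 5.60, 5.99 and 6.5 (7.51-fold lower, -2.91 ± 0.43). Timp1, an inhibitor of such enzymes, was at 7.36, 7.60 and 8.22 against 8.56 to 9.92 (2.78-fold lower, -1.48 ± 0.29).

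**Figure D3:**
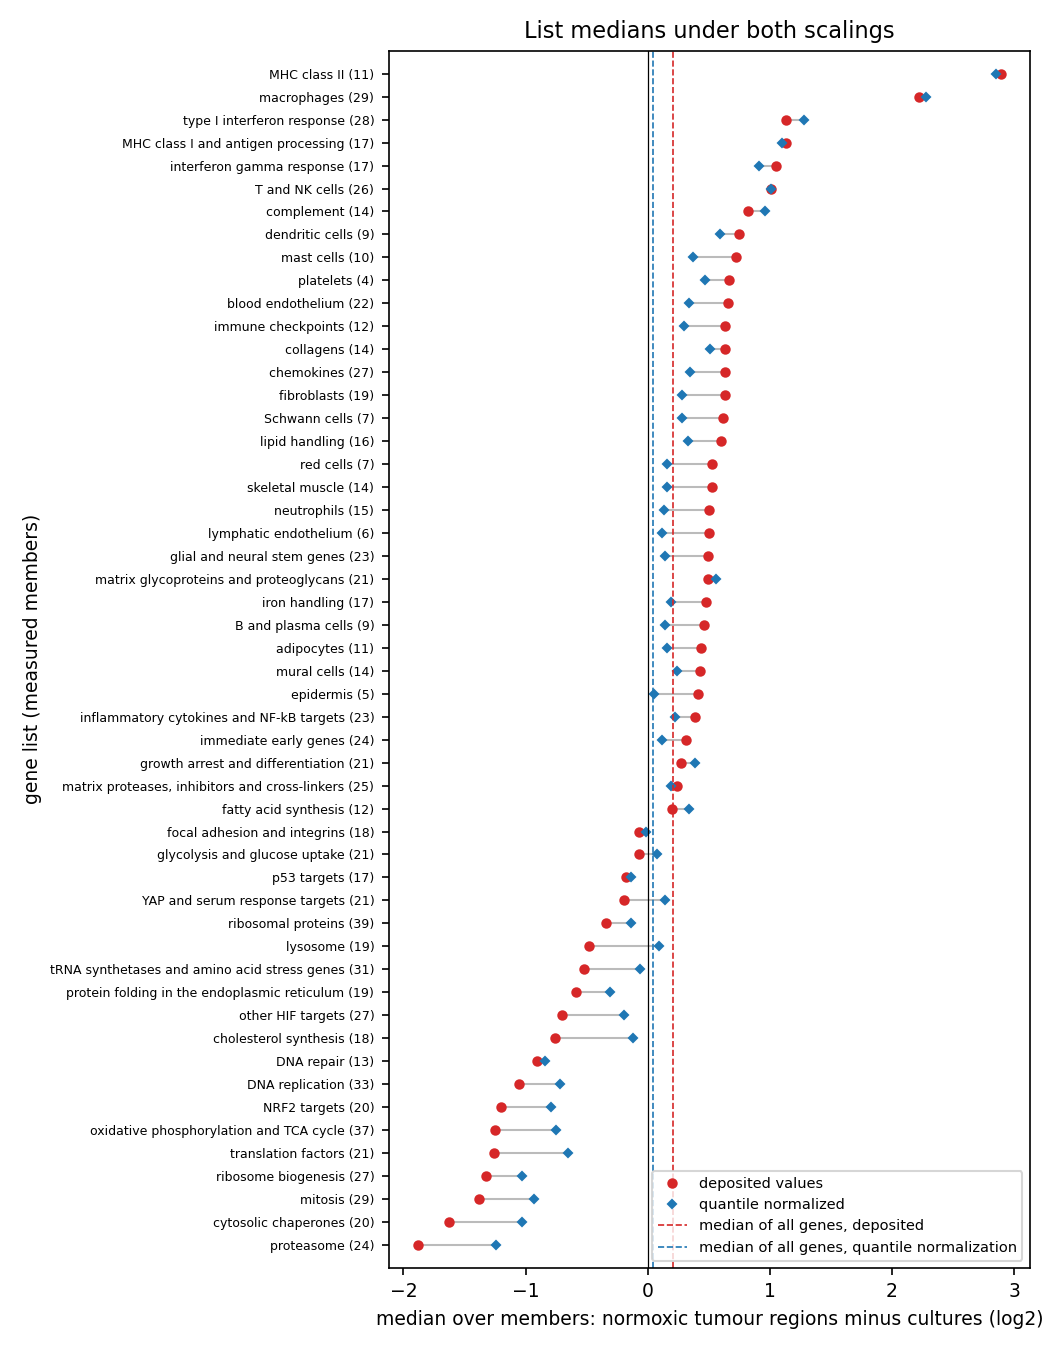
Median over the measured members of each of the 52 gene lists (number of members in brackets) of the difference between normoxic tumour regions and normoxic cultures, in log2 units, with circles for the deposited and diamonds for the quantile normalized values; dashed lines are the medians of all genes under each scaling. MHC class II (2.89 and 2.85) and macrophages (2.22 and 2.28) lie highest under both, and the proteasome (-1.88 and -1.24) lowest.

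Some large differences lay outside the immune and stromal lists. Crabp1, a retinoic acid binding protein, was among the brightest genes of the tumours at 12.39, 12.60 and 12.48 and lay at 7.62 to 8.63 in the cultures (20.1-fold, 4.33 ± 0.18, adjusted p = 2.44e-10). Apoe, the lipid carrier of macrophages and glia, was at 9.54, 10.42 and 11.01 against 7.06 to 7.40 (8.16-fold, 3.03 ± 0.23), the 1 of 16 lipid handling genes that passed the 2-fold rule (2 without tumour 2). Ddit4, a brake on mTORC1 that glucocorticoids and hypoxia induce, was at 8.83, 9.41 and 8.01 against 6.29 to 7.08 (4.37-fold, 2.13 ± 0.28).

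The gene that stood lowest in tissue relative to culture was one of detoxification. Of 20 measured NRF2 targets 13 were lower and 3 higher by the plain test (1 higher without tumour 1), 9 were lower by the 2-fold rule and 0 higher by it, and 13 of the 20 were bright in culture. Their median was -1.20 in the deposited and -0.79 in the quantile normalized values. Among the 13 bright members, 11 were lower and 7 by the 2-fold rule, where 73.4% and 29.2% of all bright genes were. Nqo1, which reduces quinones, was at 5.98, 6.15 and 6.20 in the tumours against 11.03, 11.28 and 11.57 in the lowest, median and highest culture. It was 36.5-fold lower (-5.19 ± 0.17, adjusted p = 7.25e-12), the largest lower difference of all genes whose groups did not overlap, and -5.26 after quantile normalization. All 3 tumours were low and close to each other, so the distance did not come from 1 region. Slc7a11, which imports cystine for glutathione, was at 5.75, 6.15 and 5.86 against 8.49 to 10.14 (9.73-fold lower, -3.28 ± 0.34). Gclc, the enzyme that starts glutathione synthesis, was at 7.26, 8.06 and 7.99 against 9.68 to 9.88 (4.01-fold lower, -2.00 ± 0.19). Prdx1, a peroxide reductase, was at 8.24, 8.76 and 9.23 against 11.00 to 11.17 (5.04-fold lower, -2.33 ± 0.31). The haem oxygenase Hmox1 differed most among tumours, at 6.49, 8.93 and 7.30 against 9.06 to 9.81 (3.49-fold lower, -1.80 ± 0.38).

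Some glutathione transferases and reductases outside that list were also far lower. Gsta1 was at 4.62, 4.77 and 4.40 against 8.78 to 9.53 (22.7-fold lower, -4.51 ± 0.21), and Gstm2 at 5.42, 3.49 and 4.85 against 8.38 to 9.56 (20.8-fold lower, -4.38 ± 0.44). Akr1b8, an aldo-keto reductase, was among the brightest genes in culture at 11.96 to 12.10 and lay at 6.89, 7.57 and 8.0 in the tumours (23.3-fold lower, -4.54 ± 0.28). Me1, the malic enzyme that makes NADPH, was at 6.46, 5.94 and 6.35 against 8.85 to 9.53 (7.42-fold lower, -2.89 ± 0.20). The iron storage genes, also counted as NRF2 targets, did not move with the others. Fth1 was at 12.65, 12.64 and 12.73 against 12.57 to 12.76 and did not pass, nor did Ftl1 at 12.48, 12.50 and 11.91 against 12.33 to 12.50. The 3 members that were higher by the plain test were Gsta4, Osgin1 and Ephx1, at 0.59, 0.53 and 0.44. All 3 were dim in culture, and after quantile normalization they were at 0.28, 0.19 and 0.08. The antioxidant response element (TGACNNNGC), a search added after the values were seen, was found in 3 of 15 NRF2 target promoters and in 12.2% of all.

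Among iron genes, the transferrin receptor Tfrc was at 6.09, 5.21 and 6.40 against 9.44 to 10.44 (15.6-fold lower, -3.96 ± 0.35, adjusted p = 4.16e-07). Of 17 iron handling genes 10 were higher and 3 lower, with 2 in each direction by the 2-fold rule (4 higher and 1 lower without tumour 1, and 1 lower without tumour 3). Those higher were Slc11a1, the iron pump of phagosomes, at 6.38, 7.61 and 6.69 against 4.73 to 5.15 (3.98-fold, 1.99 ± 0.24), and Tf, transferrin itself, at 7.01, 7.22 and 7.71 against 5.73 to 6.15 (2.73-fold, 1.45 ± 0.14). Over all genes 42.7% were higher and 27.3% lower by the plain test.

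Growth factors and receptors of the cultured cells were also among the 15 largest lower differences. Fgf7, the keratinocyte growth factor, was at 6.75, 4.99 and 8.11 in tumours 1, 2 and 3 against 10.98 to 11.53 (25.6-fold lower, -4.68 ± 0.43). Il1rl1, the receptor of interleukin 33, was at 5.76, 5.68 and 6.85 against 9.75 to 10.39 (16.9-fold lower, -4.08 ± 0.28), and Gpr15lg, a secreted ligand of the barrier epithelium, at 6.53, 7.17 and 6.89 against 11.04 to 11.56 (21.9-fold lower, -4.45 ± 0.13). The others of the 15 serve replication (Rpa3), ribosome assembly and mitochondria (Pno1, Mrpl13, Atp5mg, Tmem126a), tRNA repair (Thg1l) and protein tagging (Ufm1), and were 13.3-fold to 23.1-fold lower. In these 7 tumour 3 was nearest to the cultures each time; Rpa3 was at 4.87, 4.33 and 7.87 against 9.88 to 10.37.

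**Figure D4:**
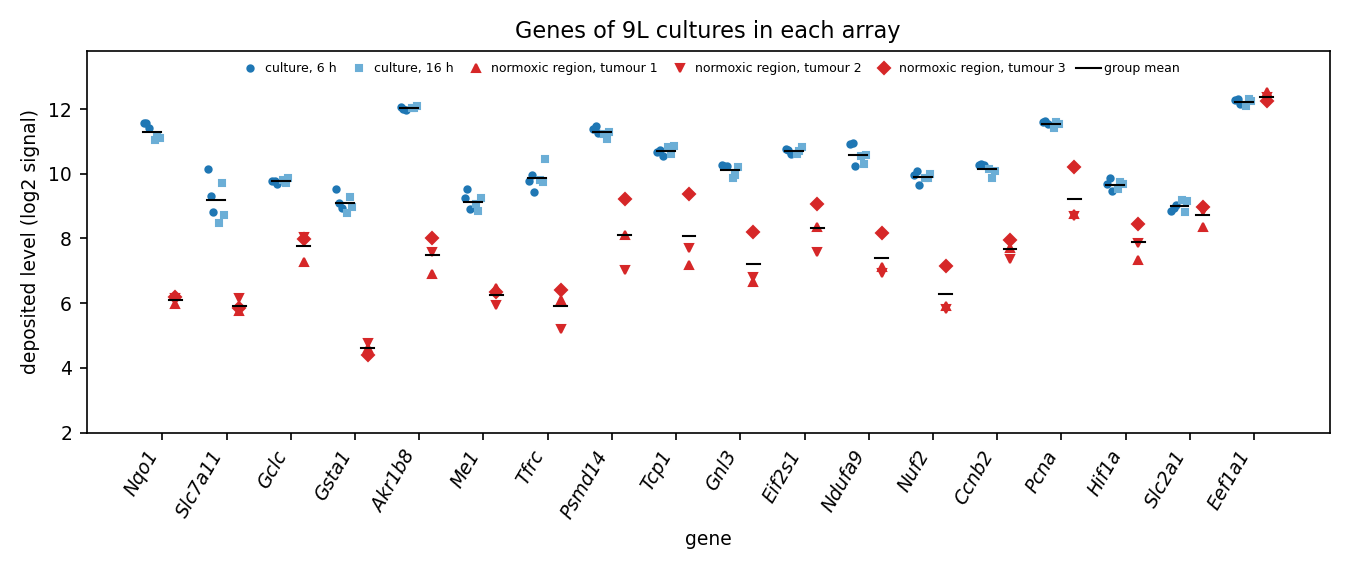
Deposited log2 signal (vertical axis) in every array of 18 genes, most of them bright in culture: circles and squares are the 6 normoxic cultures, triangles and diamonds the normoxic regions of the 3 tumours, short lines the group means. Nqo1 and Gsta1 are low in all 3 tumours, Psmd14 spreads from 7.04 to 9.23 over them with tumour 3 nearest to the cultures, and Eef1a1 and Slc2a1 overlap between both sources.

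Genes of protein breakdown and folding were lower in all 3 tumours for the most part. All 24 measured proteasome subunits, all bright in culture, were lower by the plain test, and 13 of them by the 2-fold rule, where 29.2% of all bright genes were. The median was -1.88 in the deposited and -1.24 in the quantile normalized values, against -0.96 and -0.45 for all bright genes. Psmd14, the enzyme that removes ubiquitin from substrates, was at 8.10, 7.04 and 9.23 against 11.08 to 11.49 (8.97-fold lower, -3.17 ± 0.29). The core subunit Psmb7 was at 8.63, 7.47 and 9.49 against 11.18 to 11.57 (7.44-fold lower, -2.89 ± 0.29). The distance was about as large in tumours 1 and 2, at medians of -2.25 and -2.04, and smaller in tumour 3 at -1.04. The list of cytosolic chaperones also held mitochondrial ones, such as Hspd1 and Hspa9. Of its 20 genes, 18 were lower and 10 by the 2-fold rule, with medians of -1.63 and -1.03. All 10 were among the 19 that were bright in culture, where 29.2% of all bright genes passed. Tcp1, of the ring that folds actin and tubulin, was at 7.18, 7.71 and 9.38 against 10.55 to 10.87 (6.12-fold lower, -2.61 ± 0.31), and Hspd1, the mitochondrial chaperonin, at 8.31, 8.71 and 10.46 against 11.34 to 11.50 (4.81-fold lower, -2.27 ± 0.34). Not all chaperones were low: Hsp90ab1 was at 11.45, 11.80 and 12.02 against 11.61 to 12.10 and did not pass. In the endoplasmic reticulum 16 of 19 folding genes were lower, 3 of them by the 2-fold rule (6 without tumour 3). Of the 16 members that were bright in culture 3 passed that rule, where 29.2% of all bright genes did. The list's median was -0.59 and -0.31, less low than the -0.96 and -0.45 of all bright genes.

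Cell division genes were lower in all 3 tumours. Of 29 mitosis genes 28 were lower and none higher, 14 of them by the 2-fold rule, with medians of -1.38 and -0.93. Of the 26 that were bright in culture, 12 passed the 2-fold rule, where 29.2% of all bright genes did. Nuf2, of the kinetochore, was at 5.92, 5.81 and 7.15 against 9.64 to 10.08 (12.2-fold lower, -3.61 ± 0.30, adjusted p = 2.66e-07). The mitotic cyclin Ccnb2 was at 7.72, 7.35 and 7.96 against 9.86 to 10.29 (5.58-fold lower, -2.48 ± 0.12), and the spindle motor Kif11 at 7.36, 7.75 and 8.44 against 10.12 to 10.46 (5.55-fold lower, -2.47 ± 0.17). The related cyclin Ccnb1 was at 7.72, 7.94 and 9.34 against 10.28 to 10.78 in culture (4.86-fold lower, -2.28 ± 0.33). Incenp, a partner of the Aurora B kinase, was the 1 member that did not pass, at 9.19, 9.15 and 9.70 against 9.27 to 9.48. Under quantile normalization 20 members were lower and 1 higher, Incenp at 0.70.

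The promoter of Cdc20, the activator of the anaphase-promoting complex, is printed with its CCAAT boxes (ATTGG) and its CHR element (TTTGAA) in capitals, since most mitosis genes carry these letters. It lies at chr5:137255800-137256049 of GRCr8 on the minus strand and is given on the strand of the gene.
Cdc20: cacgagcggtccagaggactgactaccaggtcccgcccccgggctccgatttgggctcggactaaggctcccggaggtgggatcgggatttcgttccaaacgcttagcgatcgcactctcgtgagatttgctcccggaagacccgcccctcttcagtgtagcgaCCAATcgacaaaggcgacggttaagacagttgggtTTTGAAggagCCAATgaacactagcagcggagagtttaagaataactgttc
Cdc20 was at 7.26, 7.36 and 7.11 in the tumours against 7.83 to 9.23 in the cultures (2.64-fold lower, -1.40 ± 0.21). The CHR letters were found in 16 of 24 mitosis promoters (66.7%), in 1 of 28 DNA replication promoters and in 18.1% of all. The CCAAT letters were found in 17 of the 24 and 17 of the 28, against 37.7% of all.

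DNA replication and repair followed. Of 33 replication genes 25 were lower and 2 higher, 14 lower by the 2-fold rule, with medians of -1.05 and -0.72. Among the 23 bright in culture, 21 were lower and 12 by the 2-fold rule, where 73.4% and 29.2% of all bright genes were. Rfc4, of the clamp loader, was at 6.28, 5.95 and 8.09 against 9.75 to 9.89 (8.43-fold lower, -3.08 ± 0.43), and the clamp Pcna itself at 8.77, 8.68 and 10.20 against 11.40 to 11.64 (5.05-fold lower, -2.34 ± 0.31). Gins1, of the replicative helicase, was at 6.01, 5.64 and 7.15 against 8.86 to 9.35 (7.73-fold lower, -2.95 ± 0.26). In all 3 genes tumour 3 stood nearest to the cultures. The 2 higher members, of which 1 was called without any 1 of the tumours, were E2f1 at 0.47 and Pold1 at 0.37. Of 13 repair genes 10 were lower and none higher, 4 by the 2-fold rule. All 7 bright repair genes were lower and 4 by that rule, against the same shares. The checkpoint kinase Chek1 was at 5.79, 5.98 and 6.18 against 8.16 to 8.68 (5.45-fold lower, -2.45 ± 0.17).

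The machinery of protein synthesis split. Of 27 ribosome biogenesis genes 23 were lower and none higher, 13 by the 2-fold rule, with medians of -1.32 and -1.03. All 13 were among the 20 that were bright in culture, where 29.2% of all bright genes passed. Gnl3, nucleostemin, was at 6.65, 6.82 and 8.19 against 9.86 to 10.26 (7.49-fold lower, -2.91 ± 0.32), and Nop14, of the small subunit processome, at 6.92, 5.98 and 8.07 against 9.23 to 9.93 (6.28-fold lower, -2.65 ± 0.38). Of 21 translation factors, all bright, 16 were lower, a rate like the 73.4% of all bright genes, and 8 by the 2-fold rule, where 29.2% were. The initiation factor Eif2s1 was at 8.34, 7.59 and 9.07 against 10.62 to 10.82 (5.19-fold lower, -2.38 ± 0.24), but the elongation factor Eef1a1 was at 12.52, 12.37 and 12.26 against 12.09 to 12.30 and did not pass. The ribosomal proteins, whose 39 measured members are all bright, stood much less low. Of these 19 were lower and none higher, 2 by the 2-fold rule (1 without tumour 1), where 29.2% of all bright genes were. Their median was -0.34 in the deposited values, -0.14 after quantile normalization and 0.27 after cyclic loess, so its direction turned with the scaling. Rps24 was the lowest at 9.25, 9.48 and 10.66 against 11.47 to 11.68 (3.55-fold lower, -1.83 ± 0.34).

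Mitochondrial energy genes were mostly lower. All 37 measured members of oxidative phosphorylation and the TCA cycle were bright in culture, 35 were lower by the plain test, where 73.4% of all bright genes were, and 12 by the 2-fold rule, where 29.2% were. Their medians were -1.25 and -0.75, against -0.96 and -0.45 for all bright genes. A subunit of complex I and a subunit of complex IV stood farthest out. Ndufa9 was at 7.13, 6.93 and 8.17 against 10.24 to 10.96 (9.07-fold lower, -3.18 ± 0.28), and Ndufa4 at 8.73, 8.30 and 10.10 against 11.72 to 12.00 (6.87-fold lower, -2.78 ± 0.29). Lysosome genes, of which 17 of 19 were bright, gave 10 lower and none higher in the deposited values, but 4 higher and 5 lower after quantile normalization, with a median that turned from -0.48 to 0.09. Lamp2, a protein of the lysosomal membrane, was lower under both (-2.25 ± 0.33 and -1.66). Among the 17 bright lysosome genes, 9 were lower in the deposited values and 4 by the 2-fold rule, where 73.4% and 29.2% of all bright genes were.

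**Figure D5:**
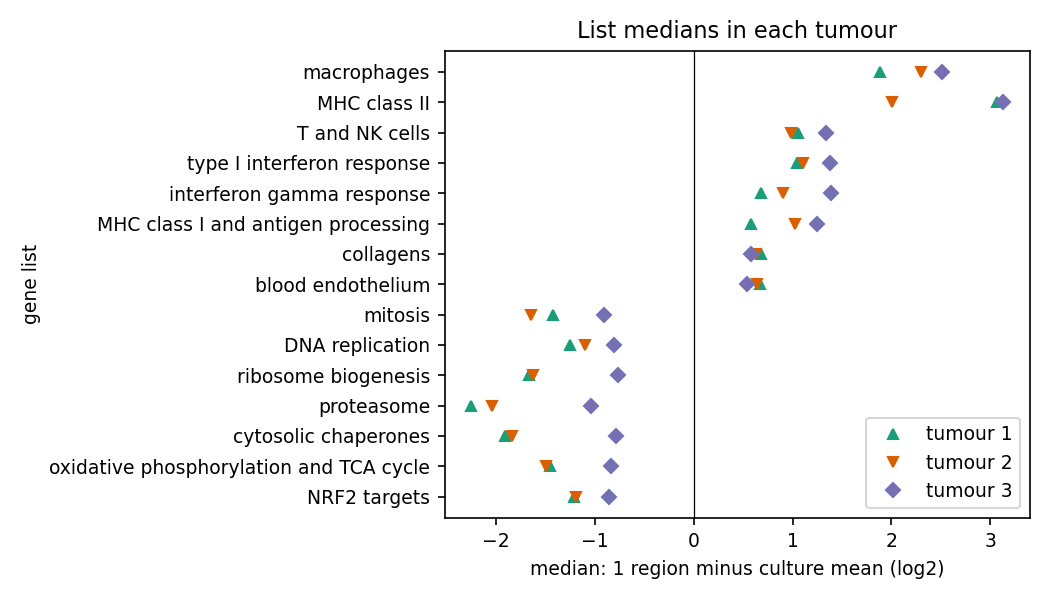
Median over the members of 15 gene lists of the difference between the normoxic region of 1 tumour and the mean of the 6 normoxic cultures (log2, deposited values), with 1 symbol per tumour. Tumour 3 lies nearest to 0 in all 7 lists that are lower, such as the proteasome at -1.04 against -2.25 and -2.04, and highest in the 6 lists of immune and interferon genes, while collagens and endothelium differ little among the tumours.

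Lipid synthesis genes went in both directions. Of 18 cholesterol synthesis genes 9 were lower and 3 higher, and after quantile normalization 1 was lower and 3 higher. Among the 11 bright in culture, 9 were lower in the deposited values, where 73.4% of all bright genes were. Idi1, the isomerase of isopentenyl units, was lower at 6.44, 5.54 and 7.15 against 8.50 to 9.47 (5.84-fold lower, -2.55 ± 0.28). Mvd, which acts just before it, was higher at 8.72, 8.50 and 8.01 against 7.20 to 7.45 (2.07-fold, 1.05 ± 0.15). Srebf2, the regulator of the pathway, was at 8.59, 9.16 and 7.65 against 7.25 to 7.68 (2.10-fold, 1.07 ± 0.24), with tumour 3 inside the range of the cultures. The desaturase Scd2 was at 8.62, 9.09 and 7.89 against 6.23 to 6.87 (3.96-fold, 1.99 ± 0.28), and Acss2, which makes acetyl-CoA from acetate, at 8.47, 8.42 and 8.62 against 7.26 to 7.52 (2.16-fold, 1.11 ± 0.11).

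Among oxygen-regulated genes, those of glycolysis had no common direction between EF5-negative tissue and cultures in air. Of 21 genes of glycolysis and glucose uptake 5 were higher, 6 lower and 10 did not pass. The median was -0.074, and it was 0.078 after quantile normalization and 0.13 after cyclic loess. Slc2a1, the glucose transporter, was at 8.34, 8.86 and 8.97 in the tumours against 8.83 to 9.19 in the cultures (-0.28 ± 0.36, adjusted p = 0.513). Vegfa, the angiogenic factor, was at 7.26, 8.16 and 7.59 against 7.13 to 8.43 (0.16 ± 0.28, adjusted p = 0.622), and Car9, the tumour carbonic anhydrase, at 8.02, 8.19 and 7.07 against 7.67 to 8.58 (-0.25 ± 0.24, adjusted p = 0.361). All 3 overlapped with the cultures. Hif1a, the oxygen-sensitive subunit, was lower as a transcript at 7.33, 7.85 and 8.46 against 9.46 to 9.87 (3.44-fold lower, -1.78 ± 0.19, adjusted p = 2.05e-06, and -1.28 after quantile normalization). Epas1, its relative of endothelium and macrophages, was at 6.14, 5.69 and 6.20 against 5.34 to 5.58. It passed in the deposited values (0.54 ± 0.13, adjusted p = 0.00180) and was at 0.16 after quantile normalization.

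Of 27 other HIF targets 14 were lower and 3 higher, with 4 lower and 1 higher by the 2-fold rule. The 4 became 2, 7 and 6 without tumours 1, 2 and 3. The list's median was -0.70 in the deposited and -0.19 in the quantile normalized values, and 2 of its 13 bright members were lower by the 2-fold rule, where 29.2% of all bright genes were. Bnip3, a receptor for the removal of mitochondria, was at 6.01, 6.80 and 8.32 against 8.95 to 9.65 (4.87-fold lower, -2.28 ± 0.31), and Fam162a at 8.39, 9.34 and 9.29 against 11.00 to 11.34 (4.53-fold lower, -2.18 ± 0.17). Pgk1, a glycolytic enzyme of the other list, was lower as well at 9.20, 9.71 and 10.15 against 11.31 to 11.66 (3.53-fold lower, -1.82 ± 0.19). Ddit4 was the 1 HIF target that was higher by the 2-fold rule.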

How the data were processed

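Total RNA of 18 samples in 6 groups was amplified with the Ovation WT-Pico kit and measured on Affymetrix Rat Gene 1.0 ST arrays. The deposited values are log2 signals per probe set, made by the authors; the submitters' processing notes name RMA and Partek 6.5b, with further settings not given in the sources used here. A small number of arrays sets the precision. Of 27363 probe sets, 15097 carried 1 gene symbol in the platform annotation, 323 several and 11943 none, which gave 14324 genes. A gene with several probe sets (499) was represented by its brightest probe set, judged by the mean of all arrays.

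limma 3.58.1 in R 4.3.3 fitted the 6 groups over all 18 arrays. The contrast was the normoxic tumour regions minus the mean of both normoxic culture groups, two-sided, with Benjamini-Hochberg adjustment over 27363 probe sets. Every adjusted p and SE is from this fit, with n = 3 tumours and 6 cultures, except those of the 1 check of oxygen state. On simulated data with 200 changed probe sets it recovered 79.6% of changes of 1 log2 unit and 99.2% of changes of 2, with 5.56% false calls. The simulation gave both sources the same spread and changed far fewer probe sets than were called here. In the data the median SD was 0.234 in the normoxic tumour regions and 0.142 in the normoxic cultures. The simulated rates therefore need not hold for these data. Each gene also has 1 estimate of the spread over all 18 arrays. For genes that vary more among tumours than among cultures, such as Cd3d, Dpt and Fgf7, SEs and adjusted p-values are likely too small. No 2 arrays held identical values, and 319 probe sets had a duplicate row of values. Alternatives covered scaling, the variance model, array weights, the arrays used, the culture time, a filter on dim probe sets and the probe set per gene. Each tumour, with both of its regions, and each normoxic culture were also left out in turn.

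The members and 52 gene lists were chosen with earlier results of these data known. Genes were named by a rule: the 15 largest differences in each direction whose groups did not overlap, up to 6 of the largest per list and direction, list members that did not pass where these were 5 or fewer, and fixed markers. Outside the rule, B2m, Cd163, Cd8a, Cdc20, Ciita, Csf1r, Dcn, Gfap, Ifit3, Ifng, Irf1, Irf9 and Isg15 were named after their values were seen.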

Additional observations from a re-analysis of the deposited data

Results flagged for a closer look

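The difference between tumour and culture was larger in normoxic than in hypoxic samples for 2 of the 35 named genes tested for it, by limma's interaction term with the 9 same-numbered normoxic and hypoxic pairs as fixed blocks, adjusted over all probe sets by Benjamini-Hochberg. Most of these genes were chosen for a large normoxic difference, which by itself favours a larger normoxic than hypoxic value, so both calls are given as descriptions. Cybb stood 4.12 log2 units above culture in the normoxic regions and 2.57 in the hypoxic regions, a difference of 1.55 ± 0.31 (SE, adjusted p = 0.0454). C1qa stood 3.93 above culture in the normoxic and 2.16 in the hypoxic regions, a difference of 1.77 ± 0.36 (adjusted p = 0.0475). Cxcl9, at 5.91 and 3.88, missed the threshold (2.03 ± 0.43, adjusted p = 0.0549). Over all probe sets 319 passed, 270 with the larger value in normoxic samples and 49 with the smaller one.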

How the results depend on the processing

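The count of probe sets higher in tumour, 11938 in the deposited values, fell to 6032 after quantile normalization (5774 over the 9 normoxic arrays alone), 4371 after median centring, 5001 after cyclic loess, 1080 with a 2-fold minimum and 843 with 2-fold under both scalings. The count of lower probe sets, 5663, fell to 3123 and 2123 under the last 2 rules. Array weights that let tumours and cultures differ in spread gave 9369 higher and 5093 lower. The tumour numbers do not recur among the cultures; 1 code in the title of tumour 2 recurs in that of 1 culture of 6 h, with no stated meaning, and it was not modelled. A random replicate block over the 9 same-numbered normoxic and hypoxic pairs gave 11935 higher and 5670 lower. Leaving out 1 tumour with both of its regions, or 1 normoxic culture, gave 9804 to 12974 higher and 5206 to 6087 lower. The rule of 2-fold under both scalings was recounted only without each tumour, with 813 to 1179 higher and 1910 to 2589 lower.

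Of 1092 list medians recomputed, 191 moved by more than the spread between replicates, most of them under median centring (41 of 52), cyclic loess (38) and quantile normalization (32). Among the 150 named genes checked, those that changed sign had not passed the test, except Gsta4, at -0.11 with its lowest probe set (Fth1 -0.0043). Some other list members that had passed did change sign after quantile normalization, such as Flna from -0.58 to 0.14 and Prox1 from 0.30 to -0.029. Quantile normalization over all 18 arrays gave Car9 0.14, Cxcl10 0.45, Fth1 -0.069, Gzma -0.047, Hsp90ab1 0.033, Ido1 -0.23, Incenp 0.70, Psmb8 0.48 and Slc2a1 0.38. Cyclic loess gave Car9 0.42, Cxcl10 0.41, Ftl1 0.48, Gzma -0.10, Hsp90ab1 0.45, Ido1 -0.25, Incenp 0.68, Psmb8 0.39, S100a9 -0.012, Slc2a1 0.39 and Vim 0.40. Median centring gave Cd14 -0.13, Eef1a1 -0.16, Fth1 -0.31, Ido1 -0.23, Psmb9 -0.066, S100a8 -0.03 and Vegfa -0.15. Cd14 was at -0.095 against the 6 h cultures alone and Psmb8 at 0.16 against those of 16 h. Leaving out 1 tumour or 1 normoxic culture gave ranges across 0 for Car9 (-0.47 to 0.091), Fth1 (-0.022 to 0.029), Ftl1 (-0.19 to 0.10), Gzma (-0.066 to 0.56), Incenp (-0.18 to 0.093), Isg15 (-0.16 to 1.06), Psmb8 (-0.25 to 0.16) and Vegfa (-0.086 to 0.37). The cause of these shifts was not tested.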
